A study of Mus musculus with 12 samples.

Results

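The 10 mouse genes Hk2, Gpi1, Pfkl, Aldoa, Tpi1, Pgk1, Pgam1, Eno1, Pkm and Ldha encode an enzyme for each step from glucose to lactate except glyceraldehyde-3-phosphate dehydrogenase, and they were followed here step by step. They were taken by symbol, 1 row each, from a table of 22561 genes, of which 9431 had enough counts to be tested. All 10 were tested, although Pgam1 had at most 5 counts in any unstimulated or IFNa sample and passed the filter through the samples with CpG. The samples were follicular (FO) B cells sorted from the spleens of 10-week-old C57BL6 mice. Unstimulated cells were set beside cells stimulated for 12 h with IFNa, with CpG or with CpG + IFNa, 3 samples each. No time of culture is given for the unstimulated cells, so that a change against them cannot be told apart from an effect of culture. IFNa is a type I interferon, CpG is a synthetic DNA that TLR9 senses, and no group carried a transgene or deletion by the labels. Neither the labels nor the study's methods say whether the 3 samples of a group came from separate mice, so that p-values measure the spread between these samples, which may be technical.

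Glycolysis splits glucose into pyruvate in the cytosol and yields ATP and precursors for nucleotides, lipids and amino acids. Lactate dehydrogenase turns pyruvate into lactate and returns the NAD+ that the pathway needs to run on. Resting B cells are small cells with a low rate of glycolysis, and B cells activated through Toll-like receptors or the antigen receptor grow and take up more glucose.

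Levels are CPM, counts scaled so that the tested genes of a sample total 1000000 before TMM scaling, a correction for differences in RNA composition. The libraries were made by BRB sequencing, which tags the 3′ end of each polyadenylated RNA with a unique molecular identifier (UMI), so that 1 count stands for 1 tagged molecule and does not grow with transcript length. Samples held 922450 to 2923865 counts, with medians of 1098670 in unstimulated cells, 1351378 with IFNa, 1645907 with CpG and 1900101 with CpG + IFNa. A CPM is a relative level, and fewer cells that carry an RNA cannot be told apart from less of it per cell. The 5 B cell markers Ms4a1, Cd79a, Cd79b, Cd22 and Pax5 summed to between 5562 and 6453 CPM in unstimulated samples and to between 928 and 1211 CPM in samples with CpG, where all 5 had fallen against unstimulated cells. Fcer2a and Cr2, which mark the follicular gate, summed to between 1536 and 1807 CPM in unstimulated samples and fell with every stimulus. The 3 T cell markers in the table stayed between 0.882 and 3.64 CPM in sum, and the 2 markers of plasmacytoid dendritic cells between 0.713 and 6.69 CPM. The 4 myeloid markers summed to between 4.41 and 21.4 CPM in unstimulated samples and to at most 1.64 CPM in stimulated ones, with all 4 at 0 in every IFNa sample. The 1 neutrophil marker in the table was at most 0.91 CPM, and the 4 plasma cell markers summed to between 119 and 145 CPM in unstimulated samples and between 45.9 and 80.4 CPM in samples with CpG. The 5 erythroid markers, globin genes and Alas2, summed to between 57.4 and 345 CPM in unstimulated samples, 15.3 and 336 with IFNa, 4.99 and 60.8 with CpG and 5.65 and 72 with both, and the sample numbered 1 held the most in each group.

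The promoters are shown because 8 of the 9 genes other than Pgam1 rose with CpG. RefSeq promoter windows of GRCm38.p6, running from 250 bases before to 50 bases after each annotated start, were found for 10 of 10 genes. They were searched on both strands for CACGTG (the E-box that MYC and related factors can bind), for ACGTG (the core of the hypoxia response element, contained in CACGTG) and for GGGCGG (the GC box). The 250 bases before the start are printed 5′ to 3′ on the strand of the gene, with ACGTG or its reverse complement CACGT in capitals, for the gene with the largest fold change, for Pgk1 and Ldha in the lower pathway, and for Gpi1, which did not pass the test with CpG.
Hk2, chr6:82774455-82774704, minus strand: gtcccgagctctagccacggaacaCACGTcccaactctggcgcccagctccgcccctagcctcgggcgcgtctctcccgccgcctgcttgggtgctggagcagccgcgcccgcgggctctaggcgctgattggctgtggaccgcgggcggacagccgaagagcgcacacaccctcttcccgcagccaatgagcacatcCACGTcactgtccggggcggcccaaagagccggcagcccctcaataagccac
Gpi1, chr7:34230337-34230586, minus strand: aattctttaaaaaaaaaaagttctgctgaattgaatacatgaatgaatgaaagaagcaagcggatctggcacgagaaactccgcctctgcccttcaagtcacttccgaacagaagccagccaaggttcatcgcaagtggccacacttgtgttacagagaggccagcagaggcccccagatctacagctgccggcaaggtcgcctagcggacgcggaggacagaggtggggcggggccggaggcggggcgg
Pgk1, chrX:106186850-106187099, plus strand: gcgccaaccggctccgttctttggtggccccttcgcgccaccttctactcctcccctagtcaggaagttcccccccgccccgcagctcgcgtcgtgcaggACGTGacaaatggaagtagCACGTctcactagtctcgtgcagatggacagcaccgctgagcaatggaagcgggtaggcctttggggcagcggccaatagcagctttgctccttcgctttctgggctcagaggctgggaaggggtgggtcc
Ldha, chr7:46845554-46845803, plus strand: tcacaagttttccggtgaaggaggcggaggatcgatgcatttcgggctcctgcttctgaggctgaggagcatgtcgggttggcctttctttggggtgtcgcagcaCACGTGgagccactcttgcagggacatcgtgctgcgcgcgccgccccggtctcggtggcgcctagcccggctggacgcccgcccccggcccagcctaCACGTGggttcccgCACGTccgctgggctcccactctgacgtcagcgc

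ACGTG lay in a window of 6 of the 10 genes, Hk2, Aldoa, Pgk1, Pgam1, Pkm and Ldha, and of 21.8% of all 27025 genes with a window. CACGTG lay in Ldha alone, against 8.09% of all genes, and the printed stretch of Ldha holds it at 2 places. GGGCGG lay in a window of 10 of 10 genes and of 38.2% of all genes. A gene can have more than 1 window, and the 10 genes had 16. By window, ACGTG lay in 7 of 16 and in 19.6% of all 32851 windows. CACGTG lay in 1 of 16 and in 7.15%, and GGGCGG in 12 of 16 and in 35.7%. Gpi1, Pfkl, Tpi1 and Eno1 had no ACGTG in any of their windows. A match says only that these letters are there, and the letters were not tested against the counts.

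The 10 genes together were higher in every sample with CpG. Their counts made up 0.128% ± 0.00804 (SD, n = 3) of all counts in unstimulated cells, 0.124% ± 0.00966 with IFNa, 0.314% ± 0.0122 with CpG and 0.286% ± 0.0116 with CpG + IFNa. The 6 samples with CpG lay between 0.273% and 0.328% and all 6 without CpG between 0.113% and 0.136%, so that the sums did not overlap. The share of mitochondrial genome and ribosomal RNA genes also separated these samples, at 3.86% to 6.4% with CpG and 6.91% to 11.65% without, and its part in the result was not tested beyond leaving those genes out: the 10 genes then made up 0.331% with CpG and 0.139% in unstimulated cells. Pgam1 reached the test through the samples with CpG, where it was high, and is left out of the counts of genes that rose. Against unstimulated cells 8 of the other 9 genes rose with CpG, the exception being Gpi1, and none fell. Among all 9431 genes tested, 36.5% rose and 38.4% fell in that comparison, at a Benjamini-Hochberg adjusted p under 0.1 in edgeR's quasi-likelihood test. Of the 9 genes 6 rose by more than 2-fold, against 20.1% of all genes tested. On the log2 scale the middle fold change of the 9 was 1.35, and that over all tested genes was -0.03.

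**Figure D1:**
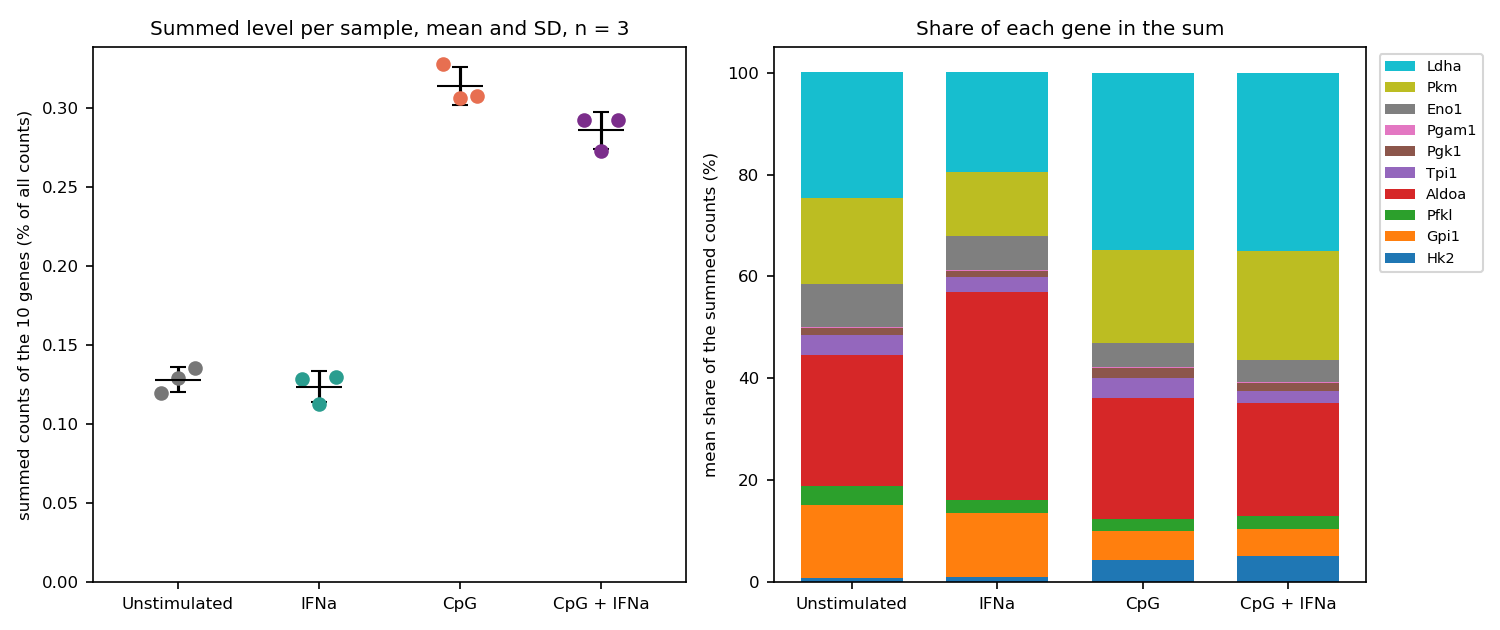
Left, the summed counts of the 10 glycolytic enzyme genes in percent of all counts of each sample (points), with mean and SD (bars) of 3 samples a group. Right, the mean share of each gene in that sum, from 0 to 100%, by group: Ldha made up 24.6% in unstimulated cells and 34.9% with CpG, Gpi1 14.2% and 5.83%, and Aldoa 40.9% with IFNa.

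The summed erythroid markers ranged lower with CpG, at 4.99 to 60.8 CPM against 57.4 to 345 CPM in unstimulated samples, and their part in the result was not tested. The sample numbered 1 carried the most of this RNA in every group. A fit without that sample, added after seeing the data and with 2 samples a group, called 8 of the 9 genes other than Pgam1 higher with CpG, but it kept the erythroid difference: the remaining samples held 156 and 57.4 CPM unstimulated and 18.5 and 4.99 CPM with CpG.

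Hk2 (chr6:82725025-82774454) encodes hexokinase 2, which phosphorylates glucose and traps it in the cell. Its level was 12.7, 9.63 and 12.4 CPM in unstimulated cells and 18.2, 7.91 and 13.7 CPM with IFNa. With CpG it was 145, 126 and 137 CPM, and with CpG + IFNa 166, 122 and 158 CPM. All 6 samples with CpG thus lay above 120 CPM and all 6 without it below 20 CPM, and within either set the groups overlapped. The fold change was 11.6 with CpG (log2 3.54, SE 0.21, adjusted p = 7.52e-16) and 12.6 with CpG + IFNa (log2 3.65, SE 0.21, adjusted p = 1.5e-16). Hk2 made up 0.918% of the summed counts of the 10 genes in unstimulated cells and 4.34% with CpG.

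Gpi1 (chr7:34201330-34230336), glucose-6-phosphate isomerase, makes fructose-6-phosphate at the next step. Its samples read 167, 185 and 188 CPM unstimulated, 159, 143 and 190 with IFNa, 179, 190 and 178 with CpG, and 149, 138 and 173 with CpG + IFNa. The CpG + IFNa samples lay below the CpG samples, and every other pair of groups overlapped. With CpG the log2 fold change was 0.02 (95% CI -0.24 to 0.27, adjusted p = 0.918). With CpG + IFNa it was -0.24 (SE 0.12, adjusted p = 0.0822), which passed the threshold although the groups overlapped. It did not pass in DESeq2 (adjusted p = 0.109) or in 9 of 12 fits that each left out 1 sample (log2 -0.31 to -0.14).

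Pfkl (chr10:77986947-78010083) encodes the liver type of phosphofructokinase, which commits sugar to glycolysis. Its levels were 47.3, 51.3 and 45 CPM in unstimulated cells, 33.3, 28.6 and 31.3 with IFNa, 75.5, 69.1 and 76.4 with CpG, and 83.5, 61.1 and 66.3 with CpG + IFNa. The IFNa samples were the lowest of all 12, the unstimulated ones came next, and the samples with CpG, with or without IFNa, were the highest and overlapped each other. Pfkl fell by 0.63 on the log2 scale with IFNa (SE 0.19, adjusted p = 0.0142) and rose by 0.63 with CpG (SE 0.16, adjusted p = 0.00078).

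Aldoa (chr7:126795234-126800751), aldolase A, splits the 6-carbon sugar into its 3-carbon parts. It was at 323, 331 and 319 CPM in unstimulated cells, 556, 494 and 535 with IFNa, 749, 791 and 681 with CpG, and 628, 661 and 619 with CpG + IFNa. No group overlapped another, in the order unstimulated, IFNa, CpG + IFNa, CpG. The last pair of that order did not pass the test (log2 fold change -0.22, SE 0.1, adjusted p = 0.183). Aldoa rose 1.63-fold with IFNa (log2 0.7, SE 0.11, adjusted p = 6.36e-06) and 2.28-fold with CpG (log2 1.19, SE 0.11, adjusted p = 1.25e-11). It was the only one of the 10 that rose with IFNa alone, and it then supplied 40.9% of the summed counts, against 25.7% in unstimulated cells.

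Tpi1 (chr6:124810586-124814296), triosephosphate isomerase, interconverts the 3-carbon sugars. Its levels were 49.1, 40.7 and 55.6 CPM in unstimulated cells, 36.3, 34.7 and 41.2 with IFNa, 120, 135 and 120 with CpG, and 66.6, 64.9 and 71.4 with CpG + IFNa. The 3 CpG samples were far above the 3 with CpG + IFNa, which in turn lay above all unstimulated samples. Tpi1 rose 2.55-fold with CpG (log2 1.35, SE 0.14, adjusted p = 6.09e-10) and 1.38-fold with CpG + IFNa (log2 0.47, SE 0.15, adjusted p = 0.00641).

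**Figure D2:**
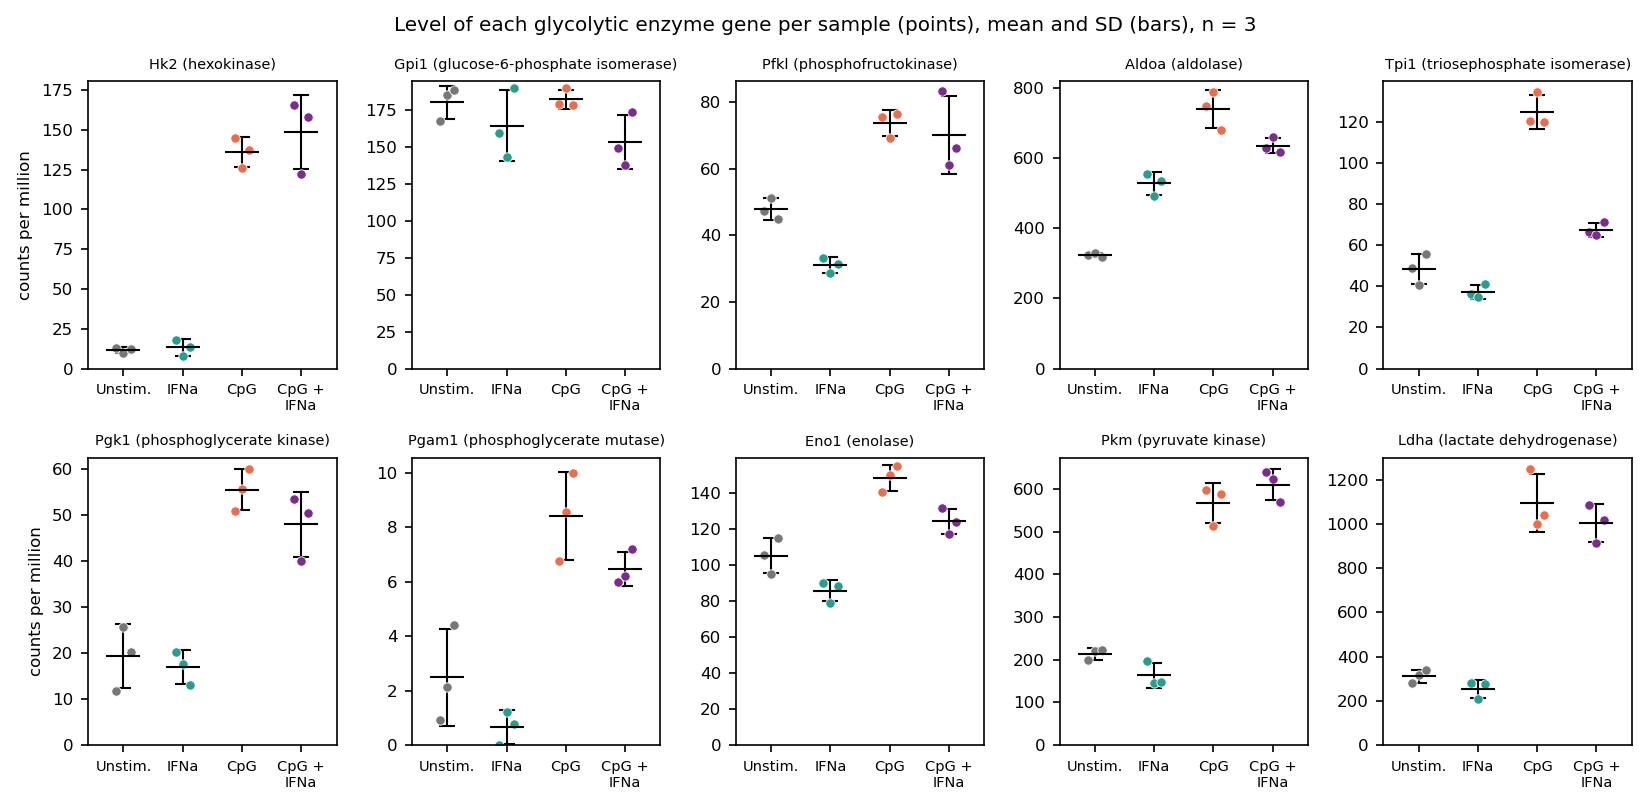
Level of each of the 10 genes in TMM-scaled CPM (linear axis from 0, its range set for each gene) in every sample (points), with mean and SD (bars) of 3 samples a group, in the order of the reactions. Every gene but Gpi1 separates the 6 samples with CpG from the 6 without it, and Pgam1 passed the filter through the samples with CpG. How many of all genes tested separate them so was not counted. Gpi1 overlaps between unstimulated cells and each stimulus, and Aldoa is higher with IFNa alone. Tpi1 with CpG + IFNa lies between 64.9 and 71.4, below the CpG samples.

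The next step, glyceraldehyde-3-phosphate dehydrogenase, is not among the 10. Gapdh averaged 39.9 ± 1.89 CPM (SD, n = 3) in unstimulated cells and 131 ± 11.3 CPM with CpG, and it rose by 1.71 on the log2 scale (SE 0.16, adjusted p = 1.91e-11). The last 500 bases of its transcripts matched 97 other genes, 94 of them pseudogenes, at 95% identity over at least 80 bases. Those in the table held 55.2% of the counts of Gapdh and its copies together, so that the level of Gapdh is uncertain. Among the 10 genes, matching copies held at most 2.48%, for Eno1, and no copy was found for Hk2, Pfkl or Pgam1.

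Pgk1 (chrX:106187100-106203699), phosphoglycerate kinase, makes the first ATP of the payoff phase. It was at 11.8, 25.7 and 20.3 CPM unstimulated, 20.2, 17.6 and 13 with IFNa, 51, 55.6 and 59.9 with CpG, and 53.5, 40 and 50.4 with CpG + IFNa. Samples with and without CpG did not overlap, and the fold change was 2.92 with CpG (log2 1.55, SE 0.22, adjusted p = 1.98e-07). Pgam1 (chr19:41911923-41918660), phosphoglycerate mutase, was the least abundant, with 1, 2 and 5 counts in unstimulated cells, 0, 2 and 1 with IFNa, 11, 12 and 20 with CpG, and 11, 18 and 14 with CpG + IFNa. Its counts with CpG were all above those without, and as it reached the test through these samples no test of a rise is given. The fitted log2 difference was 1.72 with CpG (SE 0.52), and 1.33 to 2.45 when 1 sample was left out.

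Eno1 (chr4:150236721-150248879), enolase 1, makes phosphoenolpyruvate. Its levels were 106, 95.2 and 115 CPM in unstimulated cells, 89.8, 79.1 and 88.5 with IFNa, 141, 150 and 155 with CpG, and 132, 117 and 124 with CpG + IFNa. The groups were ordered IFNa, unstimulated, CpG + IFNa and CpG without overlap, but only by 1.41-fold between unstimulated cells and CpG (log2 0.49, SE 0.12, adjusted p = 0.000581). With CpG + IFNa the log2 fold change of 0.23 (SE 0.12, adjusted p = 0.0846) passed the threshold narrowly, and it did not in DESeq2 (adjusted p = 0.186) or in 3 of the 12 fits that left out 1 sample.

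Pkm (chr9:59656368-59679375) encodes the muscle forms of pyruvate kinase, M1 and M2, which 3′ counts do not separate. It was at 198, 220 and 222 CPM unstimulated, 197, 145 and 148 with IFNa, 599, 515 and 590 with CpG, and 639, 624 and 569 with CpG + IFNa. The IFNa samples lay below all unstimulated ones, 1 of them by less than 2 CPM, and both sets with CpG lay far above and overlapped. Pkm fell by 0.4 with IFNa on the log2 scale (SE 0.13, adjusted p = 0.0252) and rose 2.66-fold with CpG (log2 1.41, SE 0.12, adjusted p = 3.72e-12). Ldha (chr7:46841475-46855627), lactate dehydrogenase A, had 280, 318 and 338 CPM unstimulated, 279, 207 and 278 with IFNa, 1247, 1000 and 1041 with CpG, and 1086, 915 and 1017 with CpG + IFNa. It was the most abundant of the 10 in every sample with CpG, whereas Aldoa was so in every sample without CpG but 1, the unstimulated sample numbered 3. Ldha rose 3.51-fold with CpG (log2 1.81, SE 0.13, adjusted p = 2.34e-14).

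**Figure D3:**
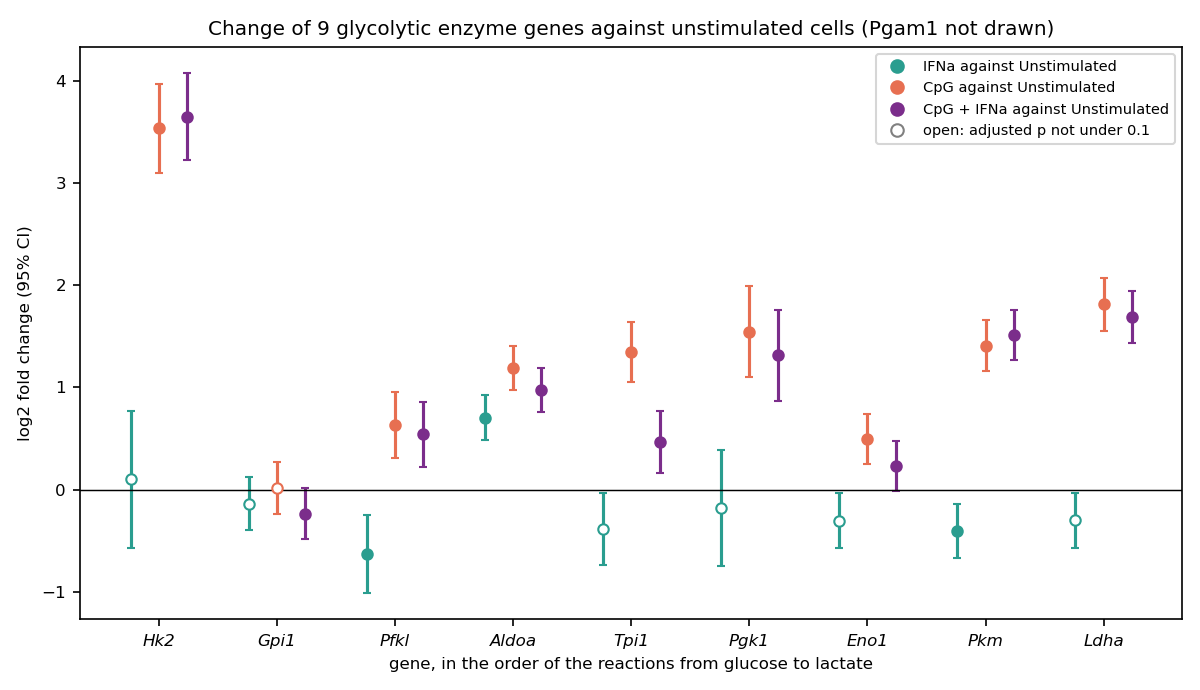
Log2 fold change of the 9 genes other than Pgam1 against unstimulated cells (points) with its 95% confidence interval (bars), for IFNa, CpG and CpG + IFNa, in the order of the reactions; open points did not reach an adjusted p under 0.1. Hk2 stands highest at 3.54 with CpG and 3.65 with CpG + IFNa, and in the IFNa comparison Aldoa alone is above 0 among the filled points.

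With IFNa alone the summed share of the 10 genes overlapped that of unstimulated cells, at 0.113% to 0.13% against 0.12% to 0.136%, and without Ldha the order of the means turned (0.0995% against 0.0966%). Against unstimulated cells 1 of the 10 genes rose, Aldoa, and 2 fell, Pfkl and Pkm. None of them changed by more than 2-fold, and of all genes tested 12.4% rose and 11.9% fell. Of the other 7, Pgam1 had so few counts that its fitted log2 fold change of -1.64 ran from -2.34 to -0.93 when 1 sample was left out, and the remaining 6 had log2 fold changes between -0.39 for Tpi1 and 0.1 for Hk2. Eno1 (-0.31, adjusted p = 0.106) and Ldha (-0.3, adjusted p = 0.11) did not overlap with unstimulated cells and missed the threshold by little. How many of all genes tested did not overlap was not counted. The median over the 10 genes was -0.3, against -0.0012 over all genes tested. The count of genes that fell rests on the scaling: with library sizes alone in place of TMM factors 5 fell, with Eno1, Ldha and Tpi1 beside Pfkl and Pkm. Without the unstimulated sample numbered 2, 4 fell, and Pkm missed the threshold without the IFNa sample numbered 2 (adjusted p = 0.108) or 3 (adjusted p = 0.137).

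With CpG + IFNa the same 8 genes rose against unstimulated cells as with CpG, Pgam1 left out again, and Gpi1 passed the threshold for a fall that 9 of 12 fits with 1 sample left out did not keep. There 37.6% of all genes tested rose and 38.8% fell. Hk2, Pgk1, Pkm and Ldha rose by more than 2-fold, which 20.3% of all genes did. Against IFNa alone 8 of the 9 rose and none fell, with 36.1% and 39.8% of all genes tested, and 5 rose by more than 2-fold, against 18.7%. These comparisons share samples with those above and are not independent of them. Against CpG alone no gene of the 10 rose, where 6.54% of all genes did, and 1 fell, where 8.83% did. That gene was Tpi1, which fell 1.85-fold when IFNa was added to CpG (log2 -0.88, SE 0.12, adjusted p = 1.63e-06). For Hk2 and Pkm the 95% CI of the log2 difference ran from -0.15 to 0.38 and from -0.12 to 0.33, and for Ldha from -0.36 to 0.11. The other 6 genes had log2 differences between -0.4 and -0.08, and none of them passed the threshold. Among them Gpi1, Aldoa and Eno1 did not overlap between the groups (adjusted p = 0.185, 0.183 and 0.131). How many of all genes tested did not overlap there was not counted.

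**Figure D4:**
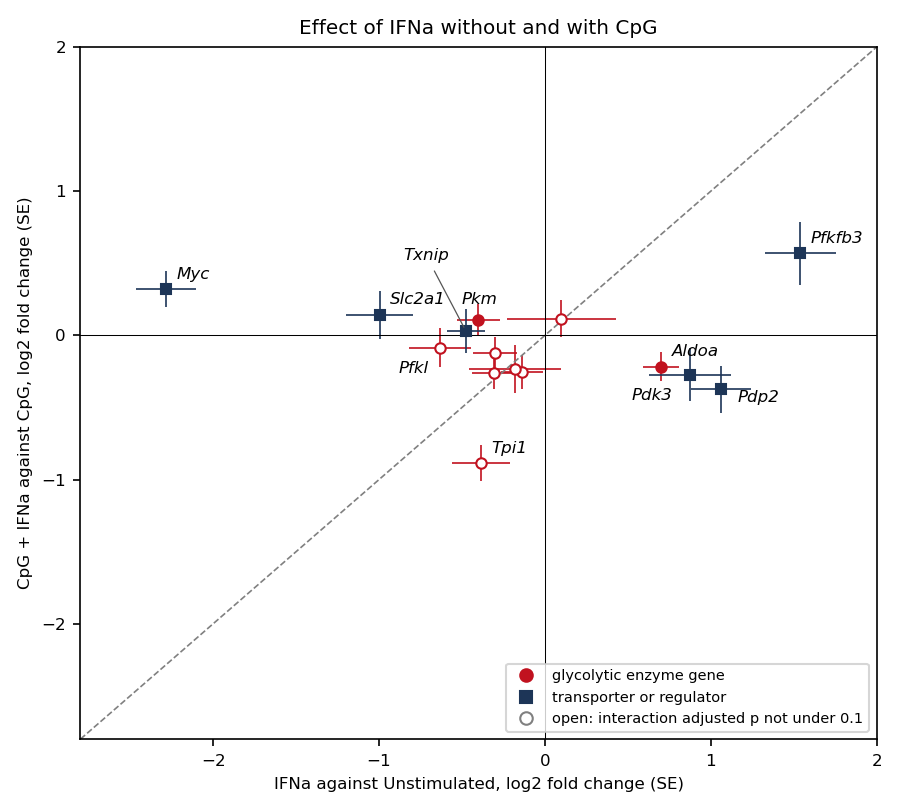
Log2 fold change with IFNa without CpG (horizontal axis) and with CpG (vertical axis), with SE bars. Circles are the 9 glycolytic enzyme genes other than Pgam1. Squares are only those 6 of 19 tested transporters and regulators whose interaction passed the threshold, so that all squares are filled by that choice. The dashed line marks equal effects, and open points have an interaction with an adjusted p not under 0.1. Aldoa lies at 0.7 and -0.22, Pkm at -0.4 and 0.1, and Myc farthest from the line at -2.28 and 0.32.

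Whether IFNa acted differently with CpG was tested as an interaction, the effect of IFNa with CpG minus its effect without CpG. It passed the threshold for 2 of the 10 genes: Pkm with 0.51 on the log2 scale (SE 0.17, adjusted p = 0.0561) and Aldoa with -0.92 (SE 0.15, adjusted p = 5.35e-05). Among all genes tested it was positive for 5.84% and negative for 7.58%. The effect without CpG was taken against unstimulated cells, whose culture time is not given, so an effect of culture cannot be told apart here. Aldoa was higher with IFNa when CpG was absent and had a log2 difference of -0.22 when CpG was present, and the interaction lay between -0.98 and -0.84 in every alternative that gave it. For Tpi1 the interaction was -0.5 (SE 0.21, adjusted p = 0.152), so that its fall with IFNa was not shown to differ between cells with and without CpG. The interaction of Pkm missed the threshold, with an adjusted p of 0.105 to 0.178, in 6 of 12 fits that each left out 1 sample, and at reduced depth (0.39, adjusted p = 0.209).

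Not all other genes of the same steps rose with CpG. Of 20 isozymes and genes of the missing step, 17 were in the table and 6 had enough counts to be tested. Aldoc and Hk1 reached the test through samples without CpG, with fewer than 3 samples with CpG above the bound of the filter, and no test of a fall with CpG is given for them. Of the other 4, Gapdh and Pfkp rose with CpG, and Eno3 and Bpgm did not pass the test. In that comparison 36.5% of all genes tested rose and 38.4% fell. Hk1, a hexokinase found in many tissues, averaged 35.6 ± 4.65 CPM (SD, n = 3) in unstimulated cells, 9.48 ± 5.39 CPM with CpG and 4.23 ± 1.76 CPM with CpG + IFNa. Hk2 rose in the same samples, so that Hk1 was above Hk2 in unstimulated and IFNa cells and Hk2 above Hk1 in all 6 samples with CpG. Pfkp, the platelet type of phosphofructokinase, rose 1.91-fold (log2 0.94, SE 0.16) and averaged 48.8 CPM in unstimulated cells and 92.8 CPM with CpG, where Pfkl averaged 47.9 and 73.7 CPM. It overlaps Pitrm1 on the opposite strand, which held 1618 counts. Aldoc had 8 to 10 counts in each unstimulated sample and 0 to 2 with CpG.

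Of the 11 transporters of glucose and lactate 6 were tested. With CpG the lactate carrier Slc16a1 (MCT1) and its chaperone Bsg rose, while the glucose carriers Slc2a1 (GLUT1) and Slc2a3 (GLUT3) fell. Of all genes tested 36.5% rose and 38.4% fell with CpG. The lactate carrier Slc16a7 (MCT2) had 6 to 14 counts in unstimulated samples and 1 to 3 with CpG. The sugar carrier Slc2a6 had 8 to 20 counts in unstimulated samples and 6 to 11 with CpG. Both reached the test through samples without CpG, and no test of a fall with CpG is given for them. Slc16a1 stood at 15.5, 16 and 18.5 CPM in unstimulated cells and at 122, 130 and 137 CPM with CpG, with no overlap and a 7.71-fold rise (log2 2.95, SE 0.19, adjusted p = 2.23e-15). Bsg rose 2.09-fold, from 81.8 ± 1.34 to 171 ± 1.82 CPM (SD, n = 3). Slc2a1 had 63.7, 47.1 and 39.7 CPM unstimulated and 41.1, 32.1 and 35.5 with CpG, groups that overlapped. Its fall (log2 -0.47, SE 0.18, adjusted p = 0.0234) was lost without the unstimulated sample numbered 1 (-0.23, adjusted p = 0.328) or the CpG sample numbered 2 (-0.36, adjusted p = 0.109), and with the samples numbered 2 and 3 alone (-0.33, adjusted p = 0.208). With IFNa alone Slc2a1 (log2 -1, SE 0.2, adjusted p = 0.00034) and Slc2a3 (log2 -0.88, SE 0.28, adjusted p = 0.026) fell and none of the 6 rose. Of all genes tested 11.9% fell and 12.4% rose with IFNa.

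**Figure D5:**
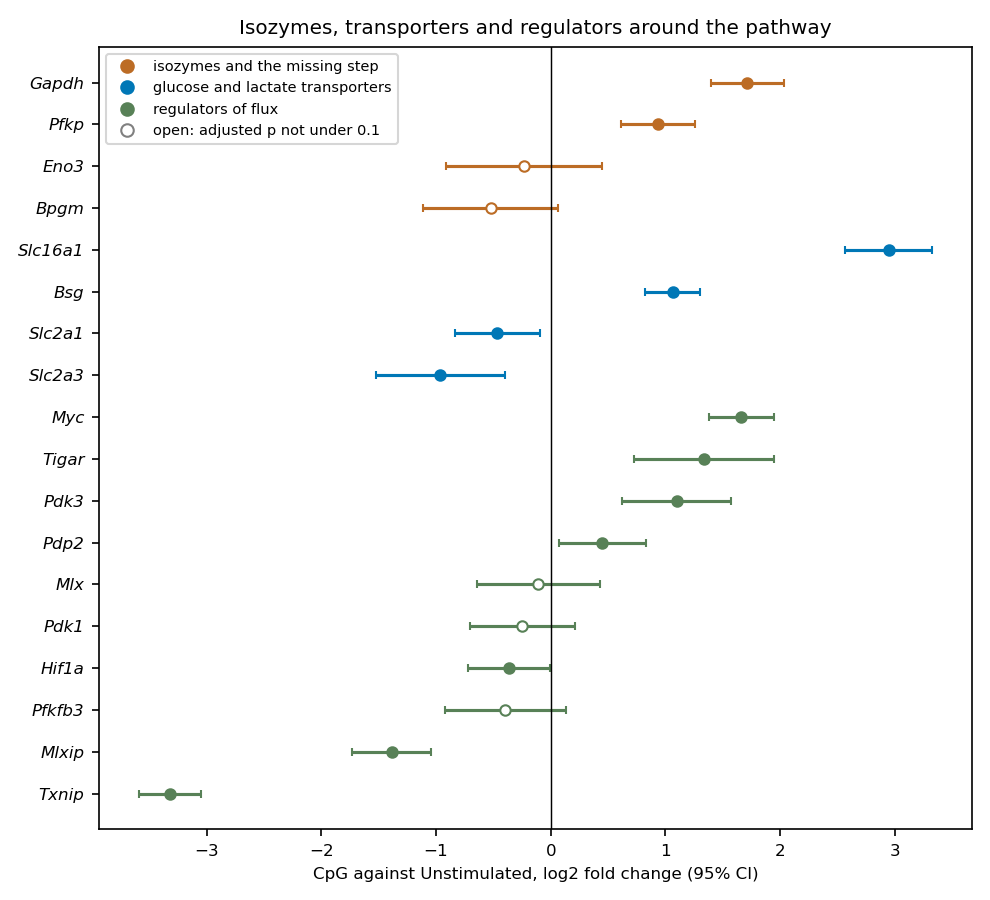
Log2 fold change with CpG against unstimulated cells (points) with 95% confidence interval (bars) for the isozymes with Gapdh, transporters and regulators of flux that had 3 or more samples above the bound of the filter both with and without CpG; open points did not reach an adjusted p under 0.1. Slc16a1 (2.95) and Gapdh (1.71) stand highest, and Txnip (-3.32) lowest.

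There were 13 tested genes among the 16 regulators of flux, of which Pdk2, Pfkfb4 and Pdp1 reached the test through samples without CpG. Of the other 10, 4 rose with CpG and 3 fell, beside 36.5% and 38.4% of all genes tested. Myc, a transcription factor that binds many genes of glycolysis, had 225, 143 and 168 CPM unstimulated, 48.4, 26.8 and 38.9 with IFNa, 572, 610 and 520 with CpG, and 755, 647 and 725 with both. No groups overlapped, with a 3.16-fold rise with CpG (adjusted p = 2.94e-12) and a 4.87-fold fall with IFNa (adjusted p = 4.69e-12). Txnip, which promotes the removal of glucose carriers from the cell surface, fell 9.97-fold with CpG (log2 -3.32, SE 0.13, adjusted p = 2.59e-20). Pdk2, a kinase that inhibits pyruvate dehydrogenase, had 6 to 9 counts in unstimulated samples and at most 1 in samples with CpG, whereas its relative Pdk3 rose 2.14-fold (log2 1.1, SE 0.23). Tigar, which lowers fructose-2,6-bisphosphate, rose 2.52-fold (log2 1.33, SE 0.3), and Pdp2, a phosphatase that reactivates pyruvate dehydrogenase, rose by 0.45 (SE 0.19), a call that DESeq2 did not make (adjusted p = 0.11). Pfkfb4 had 8 to 11 counts in unstimulated samples and 4 to 8 with CpG. Pdp1 had 9 to 18 counts in unstimulated samples and 8 to 11 with CpG. Beside Txnip, Mlxip and Hif1a fell, Hif1a by 0.37 (SE 0.18, adjusted p = 0.0635) with overlapping groups. The call of Hif1a was lost without the unstimulated sample numbered 1 or 3 or the CpG sample numbered 1 (log2 -0.33, -0.28 and -0.25). With IFNa alone Pfkfb3, which makes the activator of phosphofructokinase, rose 2.9-fold, from 21 ± 4.83 to 61.3 ± 10.5 CPM (SD, n = 3, log2 1.54, SE 0.21, adjusted p = 1.08e-06). Added to CpG, IFNa raised Pfkfb3 (log2 0.57, adjusted p = 0.0964) and lowered Pdk1 (log2 -0.73, SE 0.22, adjusted p = 0.0257).

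Downstream of and beside glycolysis, more genes rose than fell with CpG. Of 24 tested genes of pyruvate entry and the TCA cycle 19 rose and 2 fell, with a median log2 fold change of 0.7. Mdh2, malate dehydrogenase, rose by 1.38 (SE 0.12, adjusted p = 2.5e-12), and Idh3a, a subunit of isocitrate dehydrogenase, by 1.78 (SE 0.15, adjusted p = 5.94e-12). The genes that fell were Sdha (-0.27, adjusted p = 0.0545) and Ogdh (-0.24, adjusted p = 0.0857), both with overlapping groups. Of 7 tested genes of the pentose phosphate pathway 6 rose and none fell, Tkt, transketolase, by 1.27 (SE 0.12, adjusted p = 3.13e-11) and Rpia, ribose-5-phosphate isomerase, by 0.9 (SE 0.13, adjusted p = 1.91e-07). G6pc3, a glucose-6-phosphatase, rose by 0.54 (SE 0.17), and Pck2 was the only other gene of the gluconeogenesis list tested, with 0.09 and an adjusted p of 0.611. These shares stand beside the 36.5% of all genes that rose with CpG.

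The 10 genes did not all follow the same course. The Pearson correlation over the 12 samples of log2(CPM + 1) with the mean of the other 9 was 0.97 for Ldha, 0.94 for Eno1, 0.93 for Pkm, 0.65 for Aldoa and 0.04 for Gpi1. The samples share 4 groups, so these values describe the group pattern above all. Outside the lists, the genes whose course was most like the standardised mean of the 10 were Cenpm, Vdac1, Nop10, Uqcr10 and Tsnax, with correlations of 0.989 to 0.991 over the 12 samples. Vdac1, a channel of the outer mitochondrial membrane, averaged 64.3 CPM in unstimulated cells, 53.4 with IFNa, 153 with CpG and 116 with CpG + IFNa.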

How the data were processed

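RNA of sorted FO B cells was measured in 12 samples. The authors deposited raw UMI counts per gene. By their methods and processing notes, barcodes and UMIs were extracted with UMI-tools 1.1.2, reads were trimmed with Trim Galore 0.6.7, mapped to GRCm38 with HISAT2 2.2.1 and assigned to genes with featureCounts 2.0.1, and UMI duplicates were removed. The annotation release is not given in the sources used here. All 22561 identifiers were in GENCODE M21, which gave the positions. Overlapping genes: 35 counts lay in Gm49759, which overlaps Pkm on its strand, and 56 in Spsb2, opposite Tpi1. Counts with and without strand cannot be told apart from the table.

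Groups were taken from the treatment label. Genes were filtered with filterByExpr by group and scaled with TMM factors in edgeR 4.0.16 (R 4.3.3), which then tested 9431 genes with glmQLFit and glmQLFTest in 1 fit of all 12 samples, with 8 residual degrees of freedom. "Rose" and "fell" mean a Benjamini-Hochberg adjusted p below 0.1, taken over the whole set of tested genes. Every adjusted p is from this test unless DESeq2 1.42.0 is named. This test draws the spread of each gene towards that of the other genes, and the confidence intervals use the degrees of freedom so added. SE is the log2 fold change divided by the root of its F statistic. Depth of 922450 to 2923865 counts limits genes of few counts. The fit was also run on simulated counts with known changes, and the outcome is not reported here.

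The 10 genes and the lists (isozymes, transporters, regulators, pentose phosphate pathway, TCA cycle, gluconeogenesis, cell markers) were chosen with earlier results of these data known. All 10 are named. All tested isozymes, transporters and regulators could be named. Of the other lists, the 2 with the smallest p among genes higher with CpG, and likewise among those lower, are named. The like-pattern genes are the 5 with the highest correlation outside the lists. Gm49759, Spsb2 and the copies were found by position and sequence. Alternatives were other scalings, no filter, DESeq2, a 2-fold minimum, fits restricted to the groups in question, random reduction of every sample to the smallest depth, removal of mitochondrial and ribosomal RNA genes, a replicate block and leaving out each sample. A fit of the samples numbered 2 and 3 and counts without Pgam1, Aldoc, Hk1, Slc16a7, Slc2a6, Pdk2, Pfkfb4 and Pdp1, which had fewer than the 3 samples that the filter asks for above its bound without CpG (Pgam1) or with CpG (the others), were added after seeing the data. The list of barcodes was not used. A single further cell marker is not reported here.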

Additional observations from a re-analysis of the deposited data

Results flagged for a closer look

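The interaction of IFNa and CpG passed the threshold of edgeR's test for 2 of the 10 glycolytic enzyme genes and for 6 of 19 tested transporters and regulators. Its part without CpG was taken against unstimulated cells, whose culture time is not given, so an effect of culture cannot be told apart. Among all genes tested the share was 5.84% with a positive and 7.58% with a negative value. The values are the effect with CpG minus the effect without CpG on the log2 scale. For Aldoa it was -0.92 (adjusted p = 5.35e-05), with 0.7 without CpG and -0.22 with CpG. For Pkm it was 0.51 (adjusted p = 0.0561), and this value did not pass the threshold in 6 of 12 fits that each left out 1 sample or at reduced depth (0.39, adjusted p = 0.209). Myc had the largest of the 8 with 2.6 (adjusted p = 3.78e-10), and Slc2a1 had 1.14 (adjusted p = 0.00413). Pdp2 had -1.44 (adjusted p = 0.000116), Pdk3 had -1.145 (adjusted p = 0.0147), and Pfkfb3 had -0.97 (adjusted p = 0.0489). Txnip had 0.51 (adjusted p = 0.0888).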

How the results depend on the processing

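Over 21 alternatives and all 6 comparisons, 1040 of 1125 values of the 9 genes other than Pgam1 kept their direction and side of the threshold, 32 lost the call, 19 gained one and 34 changed sign; the cause was not tested. The 18 isozymes, transporters and regulators that passed the filter both with and without CpG gave 378 values for CpG against unstimulated cells. Of these, 361 kept both direction and side, 10 lost the call, 7 gained one and 0 changed sign. The named genes of the other lists were not followed over the alternatives. The number of the 10 genes called with IFNa, 3, was 6 with library sizes alone, 6 without mitochondrial and ribosomal RNA genes, 5 at reduced depth and 0 with a 2-fold minimum. That minimum left 4 of the 9 other than Pgam1 with CpG + IFNa against unstimulated cells, 0 against CpG and 0 for the interaction. Reduced depth gave 2 against CpG. Among the 9 other than Pgam1, leaving out 1 sample gave 2 to 5 with IFNa (5 without the unstimulated sample 2), 8 in every fit with CpG, 7 to 9 with CpG + IFNa, 1 to 2 against CpG (2 without the CpG + IFNa sample 3, with Gpi1), 8 in every fit against IFNa and 1 to 2 for the interaction, where Pkm was lost 6 times. The summed share was 0.139%, 0.136%, 0.331% and 0.3002% in unstimulated, IFNa, CpG and CpG + IFNa cells without mitochondrial and ribosomal RNA genes, and 0.0966%, 0.0995%, 0.204% and 0.186% without Ldha.

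Values near 0 changed sign. Gpi1 with CpG was -0.0208 with RLE factors, -0.0077 with library sizes, -0.0207 in DESeq2, -0.0134 with only those groups, -0.0328 at reduced depth, -0.0107 without mitochondrial and ribosomal RNA genes, -0.0071 in the samples numbered 2 and 3, and -0.0174 to 0.0552 leaving out 1 sample. Gpi1 with CpG + IFNa against IFNa was 0.0131 unfiltered and -0.191 to 0.043 leaving out 1 sample. The Pgk1 interaction was 0.0222 with library sizes, 0.0086 unfiltered, 0.0204 without mitochondrial and ribosomal RNA genes, 0.172 in the samples numbered 2 and 3, and -0.293 to 0.204 leaving out 1. The Hk2 interaction was -0.245 at reduced depth and -0.314 to 0.253 leaving out 1, and the Eno1 interaction -0.0819, -0.0068 in the samples numbered 2 and 3, and -0.0238 to 0.101. Pfkl with CpG + IFNa against CpG was 0.102 at reduced depth and -0.218 to 0.0181 leaving out 1. With IFNa, Pgk1 was -0.437 to 0.0600 and Hk2 -0.141 to 0.428 leaving out 1, and Hk2 was -0.0744 in the samples numbered 2 and 3.

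No source says what the replicate numbers stand for, and they were not taken to pair the samples, since not every same-numbered pair correlated above 0.1: deviations of 18 such pairs correlated at -0.065 to 0.201, and those of 36 other pairs at -0.2 to 0.0538. Still, 10 of 12 samples correlated best with their own number, and erythroid RNA was highest in the sample numbered 1 and lowest in that numbered 3 in every group, a hint from the data and not from the design. With the replicate block 4 genes were called with IFNa, with Ldha added, and 8, 9, 1, 8 and 2 of the 9 other than Pgam1 in the other comparisons, and the Hk2 interaction was -0.011. Depth limits Pgam1 above all, with 97 counts in all 12 samples, and it was not tested in the fit of CpG and unstimulated cells alone or at reduced depth.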
